A study of Homo sapiens with 12 samples.

Results

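The 2 siRNAs against CEACAM6 were compared with each other across all expressed genes, using the 4 samples labelled siCEACAM6#3 and the 4 labelled siCEACAM6#2, which are 8 of the 12 samples of the series. The samples were RNA-seq profiles of SNU308, a gallbladder cancer cell line, taken on day 3 after transfection of 25 nM siRNA. The other 4 samples carried a non-targeting control siRNA (NTC) at the same dose and day and served as the reference level. No group was left untransfected, and all 12 samples came from 1 cell line. Sources differ on the protocol, with Oligofectamine and strand-specific paired-end reads of 100 bases in the labels and RNAiMAX and single-end reads of 50 bases in the study's methods. The labels number the replicates but do not say whether they were separate cultures, so p-values measure the spread between these samples, which may be technical.

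An siRNA is a short RNA duplex, 1 strand of which, the guide, is loaded into an Argonaute protein and pairs with its complement in a messenger RNA, which is then cleaved. The first bases of the guide, the seed, can also pair on their own with short sites in the 3′ untranslated regions (UTRs) of other messenger RNAs and lower them as a microRNA does. A second siRNA with an unrelated sequence against the same gene is therefore a common control, since it shares the target and not the seed. CEACAM6, the target here, is a cell surface glycoprotein of the carcinoembryonic antigen family that takes part in cell adhesion.

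Both target sites lay in the 3′ UTR of CEACAM6, in exon 6 of 6, on the plus strand of chromosome 19 in GRCh38. The sites are shown first because each decides which seed a sample received. Capitals mark the 7 bases that pair with guide positions 2 to 8.

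siCEACAM6#2 target, chr19:41771369-41771389: cagccatgcaatgCCAAATAa

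siCEACAM6#3 target, chr19:41771611-41771631: ctcctaatagtcaTACTAGTa

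The gap between both sites was 221 bases, and the targets carried the same base at 5 of 21 positions. The seed matches, CCAAATA for siCEACAM6#2 and TACTAGT for siCEACAM6#3, each held 2 G or C bases. Outside CEACAM6, the longest run shared between the siCEACAM6#2 target and an annotated transcript was 15 bases, in the pseudogenes VNN3P and CBLL1P1. The longest for siCEACAM6#3 was 14 bases, in NEBL and MTCO3P30. Of the genes with a run of at least 14 bases, only NEBL, an actin-binding protein gene, passed the expression filter, and it differed between the siRNAs by 0.083 on the log2 scale (adjusted p = 0.928, limma-voom).

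Total estimated counts lay between 21799476 and 22059456 per sample over the whole series. The share of counts from mitochondrially encoded genes was 12.2% to 13.3% with siCEACAM6#2 and 12.5% to 15.3% with siCEACAM6#3. The epithelial markers EPCAM, CDH1, KRT7, KRT8, KRT18, KRT19 and CLDN4 were high in each sample, the lowest at 221 CPM (counts relative to library size). For the library labelled siCEACAM6#3 replicate 1, mean correlation with the 4 siCEACAM6#2 samples over all tested genes (0.989) exceeded that with the other siCEACAM6#3 samples (0.987). Replicates 2, 3 and 4 of siCEACAM6#3 were only slightly closer to their own group (0.98677 against 0.98655, 0.98866 against 0.98839, 0.98708 against 0.98705). On the main axis of variation, replicate 1 of both siRNAs lay at the same end (-27.5 for siCEACAM6#2, -21.2 for siCEACAM6#3). The other siRNA samples lay from -8.70 to 31.0. The count of called genes, and list counts that siCEACAM6#3 replicate 1 moved by over 1.5 times, are also given without that library. Those fits keep siCEACAM6#2 replicate 1.

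Of 17620 genes tested by limma-voom, 259 (1.47%) differed between the siRNAs at an adjusted p under 0.05, 148 higher (0.84%) and 111 lower (0.63%) with siCEACAM6#3. The differences were mostly small. The median called gene differed by 1.30-fold, 49 differed by at least 1.5-fold and 19 by at least 2-fold. The median log2 difference over all tested genes was -0.0043. Of the 259 genes, 245 had no overlap between the 4 samples of one siRNA and the 4 of the other, a separation that 6.68% of all tested genes showed, 3.34% in each direction. The called genes comprised 244 protein-coding genes and 15 others, of which 8 were lncRNAs. Calls depended on single libraries. Without siCEACAM6#3 replicate 1 the count was 651, of which 253 were among the 259, and without siCEACAM6#2 replicate 1, 2, 3 or 4 it was 131, 107, 83 or 118. It was 100 without siCEACAM6#3 replicate 3 and 57 with the NTC samples left out of the fit. On the deposited length-scaled values as log2(TPM + 1), 23 genes were higher and 26 lower. In all 8 fits that left out 1 of the 8 siRNA samples, 63 genes stayed called, 33 higher and 30 lower.

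**Figure D1:**
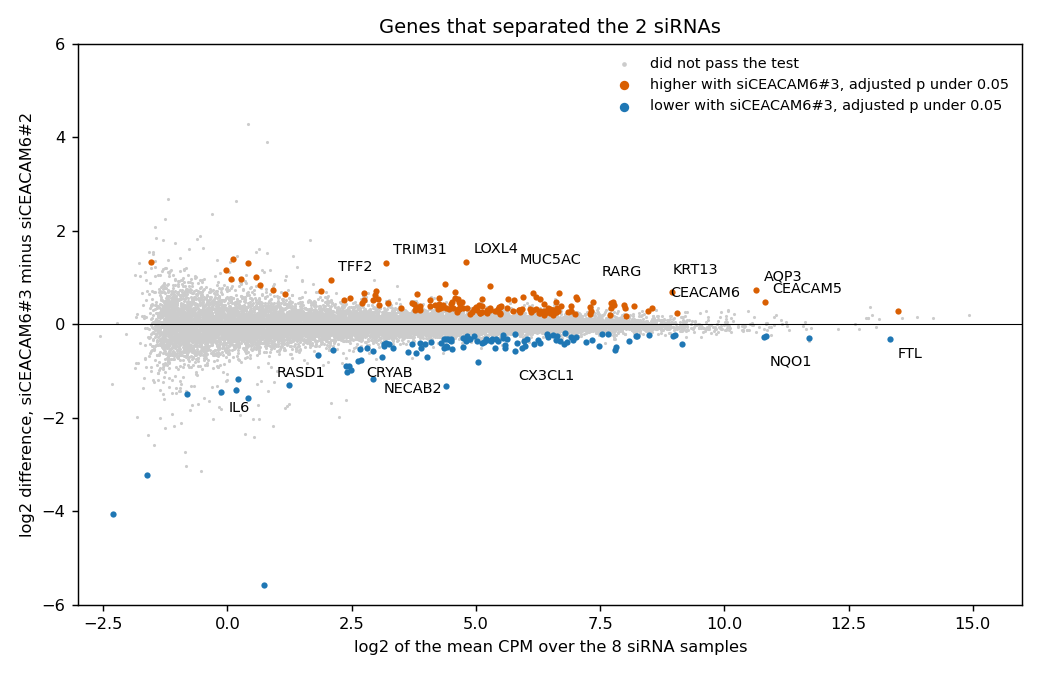
Log2 difference between the siRNAs (siCEACAM6#3 minus siCEACAM6#2) of each tested gene against the log2 of its mean CPM over the 8 siRNA samples. The 148 genes higher and 111 genes lower with siCEACAM6#3 at an adjusted p under 0.05 lie close to 0 where expression is high, with FTL and NQO1 among the abundant lower genes and AQP3 and CEACAM5 among the abundant higher ones.

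The target itself separated the siRNAs. CEACAM6 stood at 353, 343, 286 and 329 CPM in the 4 siCEACAM6#2 samples, at 423, 386, 424 and 438 CPM in the 4 siCEACAM6#3 samples and at 524, 569, 596 and 619 CPM in NTC. The 3 groups did not overlap, with siCEACAM6#2 lowest and NTC highest. The log2 difference between the siRNAs was 0.35 ± 0.068 (SE, 95% confidence interval 0.21 to 0.50, limma-voom adjusted p = 0.0160). A two-sided exact permutation test of log2 CPM gave p = 0.0286, the smallest that 4 against 4 samples allow. Relative to the NTC mean, CEACAM6 stood at 56.8% in siCEACAM6#2 samples and at 72.5% in siCEACAM6#3 samples. The adjusted p rose above 0.05 without siCEACAM6#2 replicate 3 (0.0576) and without siCEACAM6#3 replicate 3 (0.0564).

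Both comparisons with NTC share its 4 samples, so their values are given side by side only. The NTC level lay between the siRNAs for 114 of the 148 higher genes and 90 of the 111 lower genes, which were called for a gap between the siRNAs and so leave more room for it. It was nearer to siCEACAM6#3 than to siCEACAM6#2 for 104 of the 148 and 67 of the 111, and for 49.4% of all tested genes. Against NTC, 221 genes (1.25%) passed the test with siCEACAM6#2 and 12 (0.0681%) with siCEACAM6#3. Among the 259 genes, 51 higher and 34 lower ones also differed between siCEACAM6#2 and NTC, while 4 and 2 differed between siCEACAM6#3 and NTC. The 259 were called on the same siRNA samples, so some overlap is built in and no conclusion is drawn from it.

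Many of the genes that were higher with siCEACAM6#3 carried the seed match of the other siRNA. The motif CCAAATA was searched on the transcript strand of the annotated 3′ UTRs (at least 50 bases, GENCODE release 44) of 13579 tested genes, and 2139 of them (15.8%) held it. Among the 140 called higher genes with such a UTR, 71 (50.7%) held it, and among the 103 called lower genes 12 (11.7%). The 8-base form CCAAATAA, which contains the 7-base motif and adds the A opposite guide position 1, was in 6.36% of all, 32.9% of the higher and 5.83% of the lower genes. TACTAGT, the siCEACAM6#3 motif, was in 6.72% of all, 7.14% of the higher and 13.6% (14 of 103) of the lower genes, and its 8-base form TACTAGTA in 1.66%, 2.14% and 5.83%. CEACAM6 is counted among the genes with both motifs.

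Sites of the 8-base match are shown for the 6 called higher genes with the smallest p that held it, 28 bases each with the match in capitals, all on the minus strand of GRCh38 and all in the last exon.

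RARG, chr12:53210696-53210723: tatttagctgCCAAATAAgattcccatt

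EFCAB14, chr1:46676578-46676605: tttctaacaaCCAAATAAaattctagca

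HBEGF, chr5:140332852-140332879: actttgcaatCCAAATAAagataaccct

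IDS, chrX:149482083-149482110: aatttttacaCCAAATAAtaaataatgc

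MAPK9, chr5:180235980-180236007: tatttaaatgCCAAATAAtcttccaggt

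DGCR2, chr22:19036291-19036318: catccaaatgCCAAATAAacttgtgttc

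For siCEACAM6#3, the called lower gene with the smallest p among those with TACTAGTA was RBFOX2, a splicing regulator, with its site in exon 14 of 14, also on the minus strand.

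RBFOX2, chr22:35744122-35744149: ttgcaatattTACTAGTAgaggaactct

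RARG, a retinoic acid receptor, had the smallest p of all genes. It stood at 184, 180.5, 178 and 174 CPM with siCEACAM6#2, at 230.4, 255, 249.9 and 270.1 CPM with siCEACAM6#3 and at 251, 246, 269 and 261 CPM with NTC. The siCEACAM6#2 samples lay below all others, and the siCEACAM6#3 and NTC samples overlapped. The log2 difference between the siRNAs was 0.49 ± 0.052, adjusted p = 0.00116 (limma-voom, as below). Against NTC it was -0.52 with siCEACAM6#2 (adjusted p = 0.000234) and -0.032 with siCEACAM6#3 (adjusted p = 0.838). EFCAB14, a gene with an EF-hand domain, showed 82.4, 80.1, 82.1 and 80.5 CPM with siCEACAM6#2 and 107, 128, 112 and 109 CPM with siCEACAM6#3, against 101, 102, 107 and 107 CPM with NTC. Again the siCEACAM6#2 samples were the lowest, and the siRNAs differed by 0.48 ± 0.056, adjusted p = 0.00166.

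HBEGF, a ligand of the EGF receptor, ranged from 39.6 to 41.9 CPM with siCEACAM6#2 and stood at 62.8, 53, 61.5 and 58.7 CPM with siCEACAM6#3. Its NTC samples lay at 48.7, 48, 57.9 and 52 CPM, above each siCEACAM6#2 sample and overlapping siCEACAM6#3. The difference between the siRNAs was 0.53 ± 0.068, adjusted p = 0.00189. IDS, the lysosomal enzyme iduronate-2-sulfatase, held 3 copies of the 7-base motif and differed by 0.42 ± 0.056, adjusted p = 0.00189. MAPK9, which encodes the kinase JNK2, held 2 copies and differed by 0.40 ± 0.053, adjusted p = 0.00189, with log2 values against NTC of -0.41 for siCEACAM6#2 and -0.0049 for siCEACAM6#3. DGCR2 differed by 0.35 ± 0.05, adjusted p = 0.00243. All 6 genes stayed called in each of the 8 fits that left out 1 siRNA sample. Of the lower genes described further on, NECAB2, GCLM and OSGIN1 held CCAAATAA as well, and MAP2, PERP and CYP4F11 held CCAAATA.

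Higher genes with and without the motif mostly lay below NTC with siCEACAM6#2, and they had been called on those same samples. Of the 71 higher genes with CCAAATA the NTC level was nearer to siCEACAM6#3 for 59, and 35 passed the test of siCEACAM6#2 versus NTC against 2 for siCEACAM6#3 versus NTC. Their median log2 value against NTC was -0.28 with siCEACAM6#2 and 0.063 with siCEACAM6#3. Of the 69 higher genes without the motif, NTC was nearer to siCEACAM6#3 for 40. Of these 69, 15 passed the test of siCEACAM6#2 versus NTC and 1 that of siCEACAM6#3 versus NTC. Their medians were -0.26 and 0.18. Several copies were present in 18 of the 71 genes, up to 6 in RASSF8. Further members with the motif that stayed called in all 8 fits included MYL6, a myosin light chain (0.48 ± 0.079), the splicing factor gene MBNL3 (0.54 ± 0.089), TWSG1, a BMP antagonist (0.36 ± 0.051), and SC5D, an enzyme of cholesterol synthesis (0.31 ± 0.055). TGFBR1, the type I TGF-beta receptor, held 2 copies and differed by 0.34 ± 0.07, adjusted p = 0.0247, but stayed called in only 4 of the 8 fits.

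UTR length moved with the motif. Genes with CCAAATA had a median UTR of 3162 bases and genes without it 1085 bases. When all genes were divided into 4 equal classes by UTR length, the motif was in 2.74%, 8.23%, 15.9% and 36.1% of all genes from the shortest to the longest. In the called higher genes of the same classes it was in 3 of 17, 7 of 30, 25 of 42 and 36 of 51, or 17.6%, 23.3%, 59.5% and 70.6%. The share was thus above that of all genes in each class. Across all genes the shift was small, with a median log2 difference of 0.041 with the motif and -0.0082 without it. Without siCEACAM6#3 replicate 1, when 392 genes were called higher, the share of those with a UTR that held the motif was 30.4%. Whether the guide pairs with any of these sites was not tested.

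**Figure D2:**
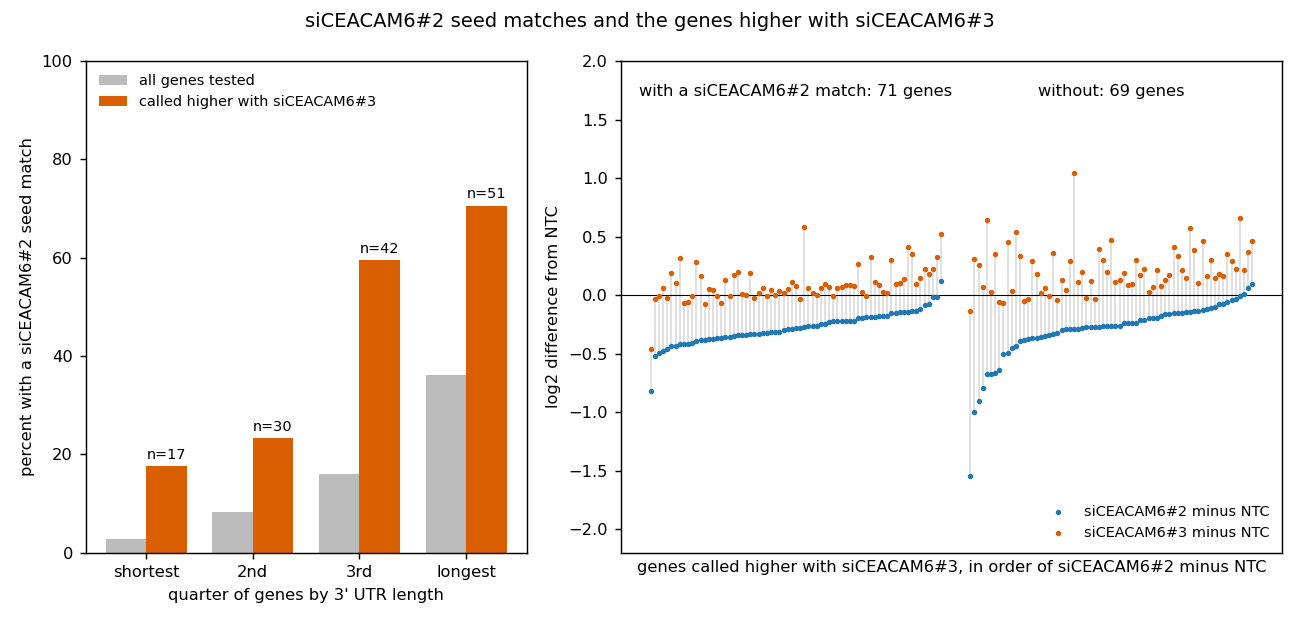
Left, percent of genes with the 7-base siCEACAM6#2 seed match in the 3′ UTR, by UTR length in 4 equal classes, for all tested genes (grey bars) and for genes called higher with siCEACAM6#3 (orange bars, n above each). Right, log2 difference from NTC of each of the 71 called higher genes with the match and the 69 without it, blue for siCEACAM6#2 and orange for siCEACAM6#3, joined by a line per gene. Most blue points lie below 0 in both groups, and orange points lie near 0 in the group with the match.

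For the siCEACAM6#3 motif, RBFOX2 stood at 109, 113, 128 and 114 CPM with siCEACAM6#2, 89.2, 96.7, 90.8 and 84.4 CPM with siCEACAM6#3 and 96.3, 99, 99.7 and 100.1 CPM with NTC. The siRNA groups did not overlap, with NTC between their means, and the difference was -0.36 ± 0.057, adjusted p = 0.00669. Of the 14 lower genes with TACTAGT the NTC level was nearer to siCEACAM6#3 for 6 and to siCEACAM6#2 for 8. Their median log2 value against NTC was 0.13 with siCEACAM6#2 and -0.20 with siCEACAM6#3. By UTR length, from the shortest class to the longest, TACTAGT was in 1 of 30, 0 of 24, 4 of 27 and 9 of 22 called lower genes. The shares in all genes of these classes were 0.736%, 2.45%, 6.80% and 16.9%. Across all genes the median log2 difference was -0.0031 with TACTAGT and 9.5e-05 without it. CCND1, the G1 cyclin D1, held 2 copies and fell from 554 ± 14 to 476 ± 13 CPM (SD, n = 4), a log2 difference of -0.22 ± 0.04, adjusted p = 0.0140.

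Of the 103 lower genes with a UTR, 79 held neither motif. Gene lists of pathways and cell functions, 33 in all, are described next by how many of their tested genes were called, which is read against the 1.47% of all tested genes. A change in the share of a kind of cell and a change in RNA per cell cannot be told apart in such bulk samples. The mucin list and the CEACAM family held called genes only on the higher side, and the NRF2, NF-kB and stress response lists only on the lower side.

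Mucins are the large glycoproteins of epithelial mucus and apical membranes, and their serine and threonine residues carry O-linked sugars that GALNT enzymes start. Of 29 genes of this list tested, 6 were called, all higher with siCEACAM6#3, and 24 lay above 0. The list median was 0.16. Of 11 mucins, 5 were called, with a median of 0.55, whereas none of 11 initiating transferases passed (median 0.059). MUC5AC, a gel-forming mucin, stood at 77, 78.3, 71.2 and 88.2 CPM with siCEACAM6#2, 108, 135, 115 and 142 CPM with siCEACAM6#3 and 100.5, 91, 87 and 100.1 CPM with NTC. The siRNA groups did not overlap, and NTC lay between their means. The log2 difference was 0.67 ± 0.086, adjusted p = 0.00189, and MUC5AC alone among the mucins stayed called in all 8 fits. MUC5B, the gel-forming mucin of the same cluster on chromosome 11, differed by 0.55 ± 0.10, adjusted p = 0.0133 and stayed called in 6 fits. The membrane mucins MUC16 (0.72 ± 0.14, adjusted p = 0.0154), MUC1 (0.53 ± 0.11, adjusted p = 0.0247) and MUC20 (0.41 ± 0.092, adjusted p = 0.0349) were also higher. MUC20 overlapped between the groups through siCEACAM6#3 replicate 1, and MUC1 and MUC20 were called in 2 and 1 of the 8 fits. ST3GAL1, which caps O-linked chains with sialic acid, differed by 0.26 ± 0.058, adjusted p = 0.0308. As a mean over the list, relative to NTC, the log2 values ran from -0.10 to -3.4e-04 in the siCEACAM6#2 samples and from 0.16 to 0.22 in the siCEACAM6#3 samples, without overlap. The number of called members was 8 without siCEACAM6#3 replicate 1, 6 without its replicate 4, and 1 to 4 without any one of the other 6 siRNA samples, lowest without siCEACAM6#2 replicate 3.

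TFF2, GNE, PSCA and AQP3 were among the 12 higher genes with the largest differences. TFF2, a trefoil peptide secreted with mucus, stood at 2.94, 2.40, 2.60 and 3.49 CPM with siCEACAM6#2 and 4.98, 4.33, 5.96 and 7.07 CPM with siCEACAM6#3. The groups did not overlap, and the difference was 0.95 ± 0.16, adjusted p = 0.00800. GNE, the first enzyme of sialic acid synthesis, was 54.9 ± 7.96 CPM with siCEACAM6#2 and 87.7 ± 11.5 CPM with siCEACAM6#3 (difference 0.68 ± 0.10, adjusted p = 0.00454), and it held 2 copies of CCAAATA. PSCA, a surface antigen, and AQP3, a water and glycerol channel, differed by 0.87 ± 0.20, adjusted p = 0.0370 and 0.74 ± 0.17, adjusted p = 0.0455. Each was called in 1 of the 8 fits. For AQP3, siCEACAM6#3 replicate 1 (1260.0 CPM) lay inside the siCEACAM6#2 samples, which were 867, 1327, 1265 and 1280.4 CPM. AQP3 held CCAAATA, and TFF2 and PSCA held neither motif.

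Other CEACAM genes were higher with siCEACAM6#3 as well. Of 5 family genes tested, 3 were called including the target, and none without siCEACAM6#2 replicate 3 or without siCEACAM6#3 replicate 3 by limma-voom, although 4 had an unadjusted p under 0.05 with all samples and edgeR and DESeq2 called 3 each. CEACAM5, the carcinoembryonic antigen itself, was 1503 ± 116 CPM with siCEACAM6#2, 2111 ± 282 CPM with siCEACAM6#3 and 1673 ± 169 CPM with NTC, so that NTC lay between them. CEACAM1 was 13.9 ± 1.12, 19.96 ± 3.01 and 15.7 ± 0.999 CPM in the same order. Its 3′ UTR also held CCAAATA, and CEACAM5 held neither motif. Reads from family members with near-identical stretches were divided among them by estimation, so these values are less certain than those of single-copy genes.

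Keratin and matrix genes were also among those that were higher. KRT13, a keratin of stratified mucosa, stood at 460.3, 378, 323 and 350.1 CPM with siCEACAM6#2, 654, 494, 571 and 741 CPM with siCEACAM6#3 and 602, 576, 642 and 566 CPM with NTC. The siCEACAM6#2 samples were below all others, and siCEACAM6#3 overlapped NTC. The difference between the siRNAs was 0.70 ± 0.11, adjusted p = 0.00660, and the value of siCEACAM6#2 against NTC was -0.67 (adjusted p = 0.00701). KRT15, a basal keratin, differed by 0.39 ± 0.068, adjusted p = 0.00900. The transcription factor KLF4, which takes part in epithelial differentiation, went the other way, with 147, 136, 139 and 133 CPM for siCEACAM6#2, 112, 113, 107 and 105 CPM for siCEACAM6#3 and 112, 107, 110.2 and 111 CPM for NTC. The siCEACAM6#2 samples lay above all others, and the difference was -0.34 ± 0.047, adjusted p = 0.00189. Of 30 keratin and squamous genes tested, these 3 were called. Of 42 matrix genes, 3 were higher and 1 was lower. COL12A1, a fibril-associated collagen, was 49.6 ± 5.07 CPM with siCEACAM6#2 and 74.5 ± 9.77 CPM with siCEACAM6#3 (0.58 ± 0.089, adjusted p = 0.00492). LOXL4, a lysyl oxidase that crosslinks collagen, stood at 18.6, 56.3, 36.6 and 50.2 CPM in the siCEACAM6#3 samples against 9.42, 18.3, 19.1 and 14.2 CPM with siCEACAM6#2. It overlapped between the groups through siCEACAM6#3 replicate 1 and was called in 1 of the 8 fits. The collagenase gene MMP13 (0.24 ± 0.056, adjusted p = 0.0478), which held CCAAATAA, was higher, and COL4A6, a basement membrane collagen chain, was lower (-0.47 ± 0.10, adjusted p = 0.0262).

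**Figure D3:**
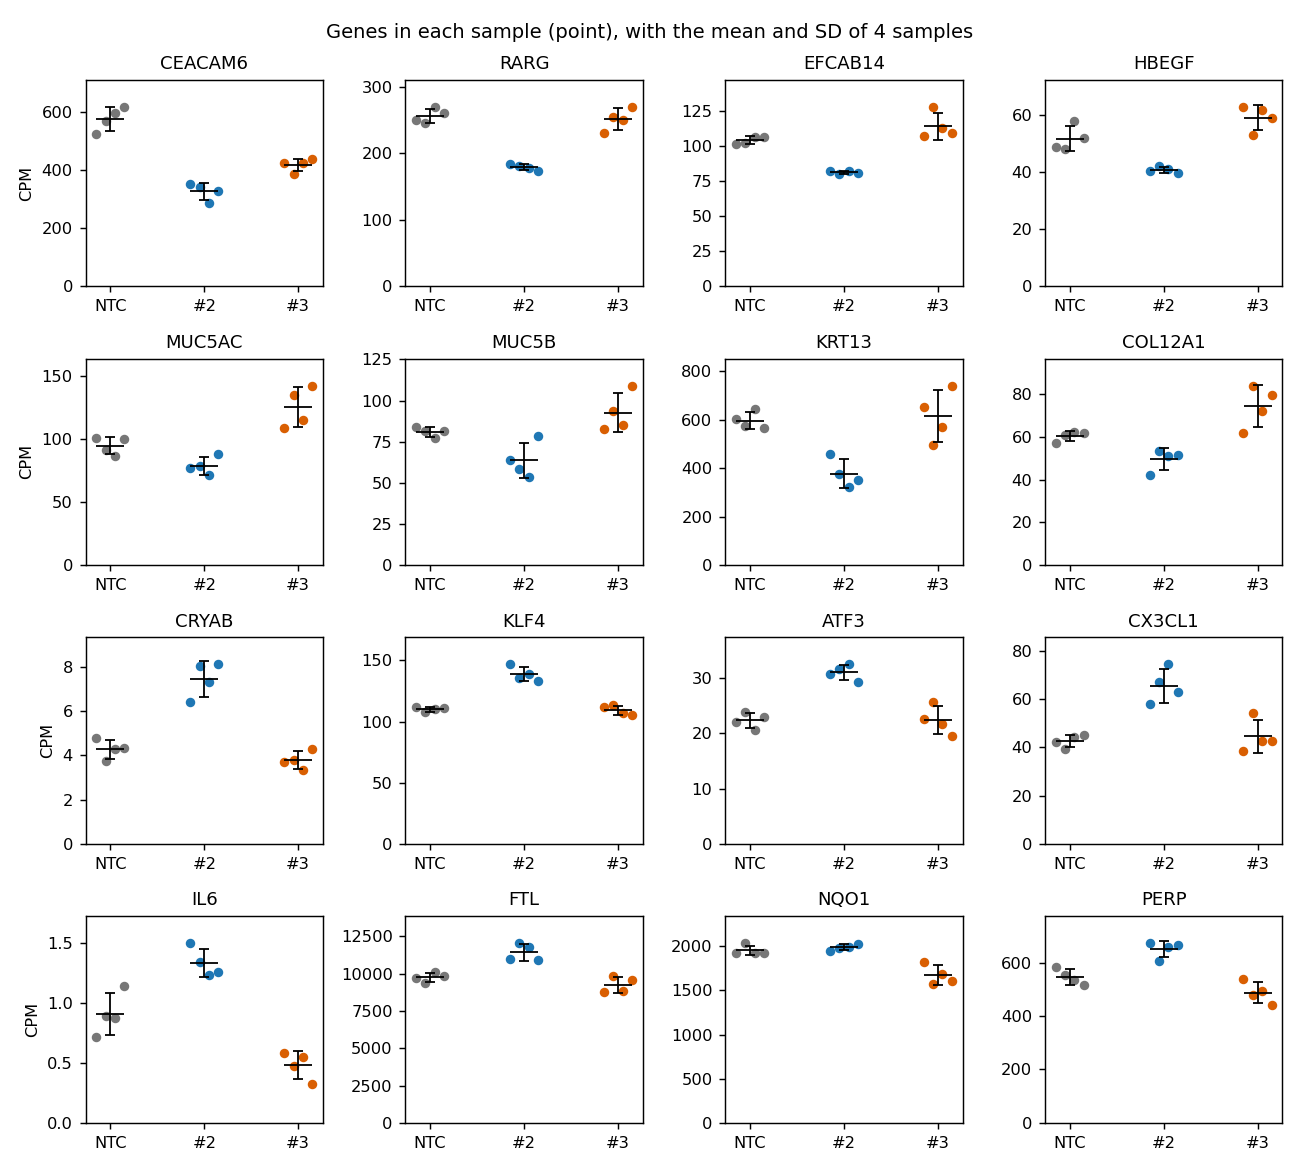
CPM of 16 genes in each of the 12 samples, by group, with a point per sample, a bar for the mean of 4 samples and whiskers for the SD. For RARG, EFCAB14, HBEGF and KRT13 the siCEACAM6#2 points lie below both other groups, for KLF4, ATF3, CRYAB and CX3CL1 they lie above them, and for NQO1 and IL6 the siCEACAM6#3 points lie lowest.

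NRF2 is the transcription factor that switches on antioxidant and detoxifying enzymes. Of 29 NRF2 targets tested, 9 were called, all lower with siCEACAM6#3, and 26 lay below 0, with a median of -0.12. The differences were small in size, from -0.23 to -0.49 on the log2 scale. FTL, the ferritin light chain that stores iron, stood at 11003, 12044, 11779.5 and 10919 CPM with siCEACAM6#2, 8764, 9877, 8867 and 9551 CPM with siCEACAM6#3 and 9709, 9361, 10103 and 9817 CPM with NTC. The siRNA groups did not overlap, and the difference was -0.30 ± 0.05, adjusted p = 0.00712. FTL stayed called in all 8 fits, and it was the only called member that did. NQO1, a quinone reductase, stood at 1946, 1984, 1992 and 2028 CPM with siCEACAM6#2, 1822, 1569, 1689 and 1607 CPM with siCEACAM6#3 and 1922, 2035, 1927 and 1929 CPM with NTC. Here siCEACAM6#2 overlapped NTC, all siCEACAM6#3 samples lay below both, and the difference was -0.25 ± 0.048, adjusted p = 0.0158. GCLM, the regulatory subunit of glutathione synthesis, was 3648 ± 112 CPM with siCEACAM6#2, 3008 ± 335 CPM with siCEACAM6#3 and 3471 ± 114 CPM with NTC (-0.29 ± 0.065, adjusted p = 0.0370), and its 3′ UTR held the 8-base matches of both siRNAs. The thioredoxin reductase gene TXNRD1 (-0.26 ± 0.058, adjusted p = 0.0349), the sulfiredoxin gene SRXN1 (-0.49 ± 0.12, adjusted p = 0.0447) and OSGIN1 (-0.36 ± 0.08, adjusted p = 0.0358) were lower, as were UGT1A6 (-0.23 ± 0.047, adjusted p = 0.0243) and CYP4F11 (-0.25 ± 0.053, adjusted p = 0.0248), which metabolize drugs and lipids. UGT1A6 shares exons with its gene cluster, so its value is uncertain. HMOX1, the haem-degrading enzyme and the 9th called member, differed by -0.36 ± 0.087, adjusted p = 0.0475. By role, 6 of 12 antioxidant genes, 3 of 12 detoxification genes and 0 of 5 genes of NADPH supply were called. The mean over the list, relative to NTC, ran from -0.023 to 0.049 (log2) in the siCEACAM6#2 samples and from -0.26 to -0.072 in the siCEACAM6#3 samples, without overlap. The number of called members was 12 without siCEACAM6#3 replicate 1, 9 without its replicate 4, 5 without its replicate 3, 3 without its replicate 2 or siCEACAM6#2 replicate 1 or 2, and 1 without siCEACAM6#2 replicate 3 or 4. With the 8 siRNA samples fitted alone, limma-voom called no NRF2 target, whereas 15 of the 29 had an unadjusted p under 0.05 in the fit of 12 samples and edgeR and DESeq2 called 9 and 13.

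Of 35 NF-kB targets and chemokines tested, 4 were called, all lower with siCEACAM6#3, and 10 lay above 0. The list median was -0.13. CX3CL1, a membrane-bound chemokine, stood at 57.8, 67.1, 74.4 and 62.8 CPM with siCEACAM6#2, 38.6, 54.4, 42.7 and 42.6 CPM with siCEACAM6#3 and 42.2, 39.5, 44.2 and 45.1 CPM with NTC. The siCEACAM6#2 samples were above all others, and the difference was -0.56 ± 0.093, adjusted p = 0.00712. IL6, an inflammatory cytokine, was low throughout, at 1.49, 1.34, 1.23 and 1.25 CPM with siCEACAM6#2 and 0.583, 0.471, 0.550 and 0.328 CPM with siCEACAM6#3. Its groups did not overlap, NTC lay between them at 0.714, 0.890, 0.872 and 1.14 CPM, and the difference was -1.44 ± 0.24, adjusted p = 0.00712. CXCL2, a chemokine for neutrophils, and TNFSF18, a ligand of the TNF superfamily, were near 1 CPM and differed by -1.40 ± 0.31 and -1.58 ± 0.35. Of 13 feedback and signalling genes of the pathway, none was called (median -0.13). The list means relative to NTC did not overlap, at 0.24 to 0.38 with siCEACAM6#2 and 0.028 to 0.15 with siCEACAM6#3 (log2). Leaving out 1 siRNA sample gave 2 to 5 called members, most without siCEACAM6#3 replicate 1, and 2 when the sample was replicate 1 or 2 of siCEACAM6#2 or replicate 3 or 4 of siCEACAM6#3.

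Stress and immediate early genes were also among those lower with siCEACAM6#3. ATF3, a stress-induced transcription factor, stood at 30.8, 31.6, 32.5 and 29.2 CPM with siCEACAM6#2, 22.6, 25.6, 21.7 and 19.6 CPM with siCEACAM6#3 and 22, 23.8, 20.6 and 22.9 CPM with NTC. Only the siCEACAM6#2 samples stood clear of the rest, and the siRNAs differed by -0.48 ± 0.077, adjusted p = 0.00669. PPP1R15A, which reverses the translation block of the stress response, was 109 ± 8.85 CPM with siCEACAM6#2, 85.8 ± 3.05 CPM with siCEACAM6#3 and 77.5 ± 2.02 CPM with NTC (-0.34 ± 0.058, adjusted p = 0.00776). TRIB3, induced by ATF4, differed by -0.37 ± 0.087, adjusted p = 0.0444 and was called in 1 of the 8 fits. These were the 3 called genes of 38 in the unfolded protein and amino acid stress list, all of them among its 22 genes of the ATF4 arm, and the list median was -0.13 with 33 of 38 below 0. Without siCEACAM6#3 replicate 1, 11 of the 38 were called. JUN, an immediate early transcription factor, was 49.3 ± 5.33 CPM with siCEACAM6#2, 34.8 ± 5.11 CPM with siCEACAM6#3 and 31.8 ± 1.66 CPM with NTC (-0.51 ± 0.10, adjusted p = 0.0149). With ATF3 and CCND1 it made 3 of 28 called genes of ERK output, while none of the 9 feedback genes of that list was called. Of 32 p53 targets, PLK2 (-0.41 ± 0.086, adjusted p = 0.0247), the cell cycle inhibitor CDKN1A (-0.43 ± 0.092, adjusted p = 0.0287) and the apoptosis gene BBC3 (-0.40 ± 0.088, adjusted p = 0.0308) were lower, and CD82 (0.26 ± 0.053, adjusted p = 0.0247) was higher. Leaving out siCEACAM6#3 replicate 1 raised the number of called p53 targets to 9, and leaving out siCEACAM6#2 replicate 2 or replicate 3 of siCEACAM6#3 lowered it to 0 by limma-voom. With all samples, 10 of the 32 had an unadjusted p under 0.05, and edgeR and DESeq2 called 4 and 6.

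**Figure D4:**
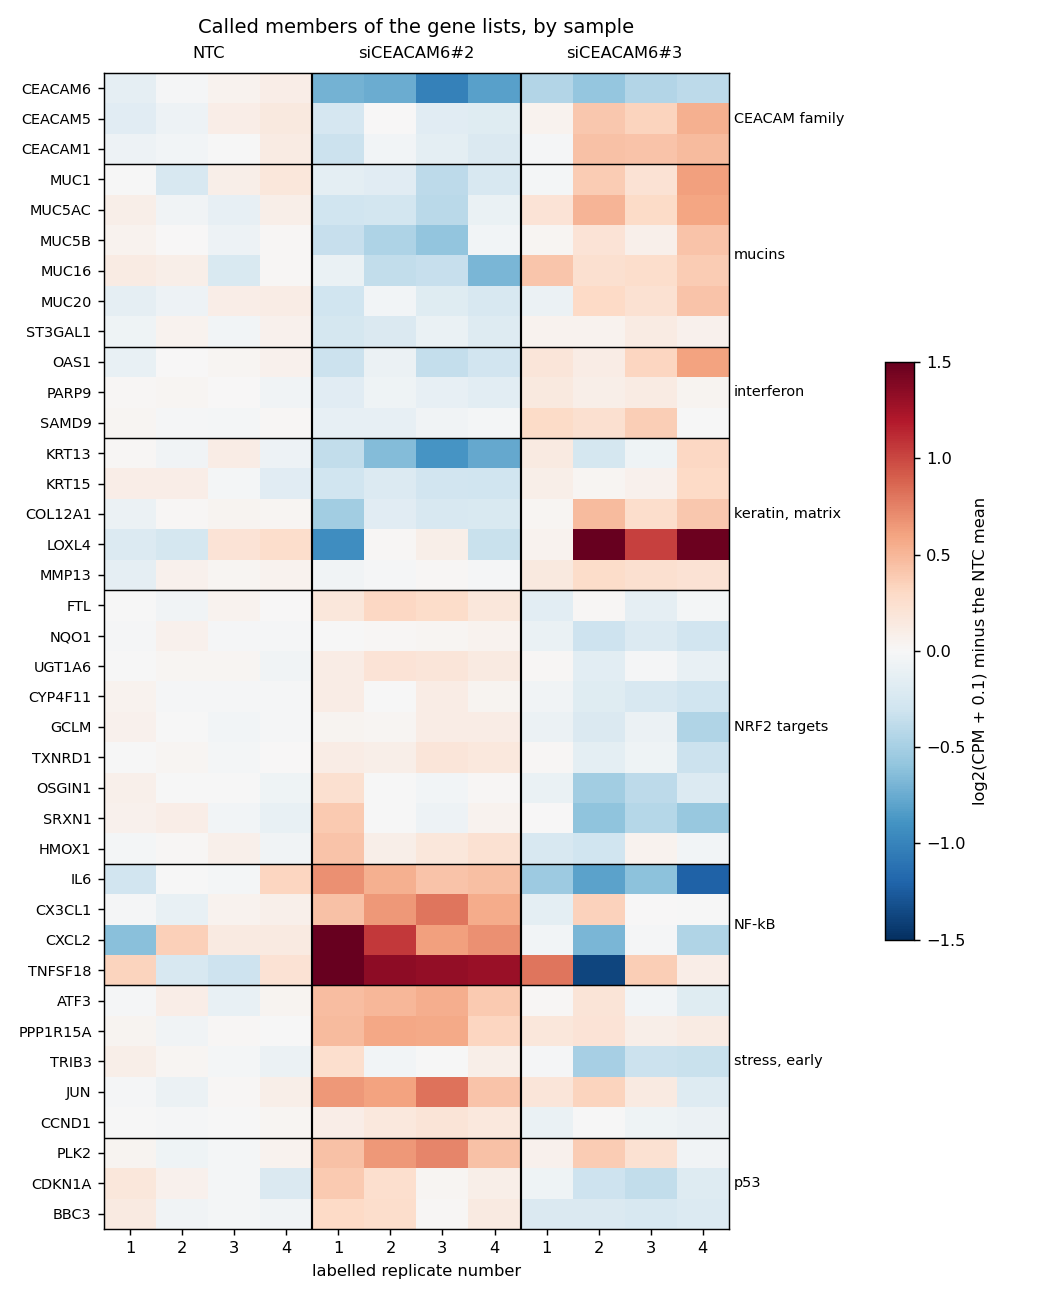
Log2(CPM + 0.1) of 38 of the called list genes in each of the 12 samples after subtraction of the gene's NTC mean, red for higher and blue for lower, with colours capped at 1.5 in either direction and lines between the groups and between the lists. NRF2 targets are mostly blue in the siCEACAM6#3 samples, NF-kB genes are red in the siCEACAM6#2 samples, and mucins are mostly blue with siCEACAM6#2 and red with siCEACAM6#3.

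Several genes with larger differences belonged to none of these lists. CRYAB, a small heat shock protein, stood at 6.39, 8.03, 7.30 and 8.11 CPM with siCEACAM6#2, 3.72, 3.81, 3.35 and 4.31 CPM with siCEACAM6#3 and 4.78, 3.74, 4.27 and 4.33 CPM with NTC. The siCEACAM6#2 samples lay above all others (-0.97 ± 0.12, adjusted p = 0.00189). NECAB2, a neuronal calcium-binding protein, differed by -1.16 ± 0.15, adjusted p = 0.00189, with 6.37, 4.05, 3.94 and 4.49 CPM in the siCEACAM6#3 samples, below each siCEACAM6#2 and NTC sample. The neuronal cytoskeleton genes NEFM (-0.81 ± 0.11, adjusted p = 0.00189) and MAP2 (-0.51 ± 0.067, adjusted p = 0.00189) were lower with siCEACAM6#3, and NAV3 (-0.77 ± 0.13) was lower too. So were RASD1, a small GTPase induced by glucocorticoids (-0.89 ± 0.15), the kinase SGK1 (-0.59 ± 0.083), the vasoconstrictor gene EDN1 (-0.88 ± 0.21), the tetraspanin TSPAN8 (-0.61 ± 0.10), COL16A1 (-0.65 ± 0.14), KIAA0319 (-0.70 ± 0.13) and ZNG1F (-1.02 ± 0.24), the last with near-identical copies. UNKL, which has a zinc finger domain (-0.53 ± 0.071, adjusted p = 0.00189), was among the 6 lower genes with the smallest p. On the higher side were TRIM31, a ubiquitin ligase (1.31 ± 0.26, adjusted p = 0.0179), the glutamate transporter SLC1A3 (0.72 ± 0.12, adjusted p = 0.00712), WNT10A (0.69 ± 0.13) and CHGB, a granin of secretory granules (0.67 ± 0.13). The protein-coding gene ENSG00000284956, which has no symbol, was listed at 0 in all 4 siCEACAM6#3 samples and at 0.272, 0.508, 0.228 and 0.537 CPM with siCEACAM6#2 and 0.223, 0.712, 0.505 and 0.593 CPM with NTC, so no fold is given.

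Among 18 genes of the EGF receptor family and its ligands, HBEGF was higher, and EPGN, another ligand (-0.79 ± 0.18, adjusted p = 0.0358), and ERRFI1, a feedback inhibitor of the receptor (-0.40 ± 0.085, adjusted p = 0.0247), were lower, while none of the 4 receptors was called. PERP, a desmosome protein, stood at 672, 607, 659 and 666 CPM with siCEACAM6#2 and 537, 478, 492 and 443 CPM with siCEACAM6#3. Its groups did not overlap (-0.42 ± 0.059, adjusted p = 0.00238), and it was the only called gene of 35 in the epithelial junction list. RNF43, which removes Wnt receptors from the surface, was the only called gene of 17 Wnt and Notch genes (-0.29 ± 0.058, adjusted p = 0.0194). TGFBR1 was the only one of 29 genes of the TGF-beta and activin axis. In the list of senescence-associated secretion, 2 of 32 were higher (MMP13 and IGFBP3) and 4 were lower (IL6, CXCL2, CDKN1A and CDKN2B), with a median of 0.046. IGFBP3, which binds insulin-like growth factors, was 249 ± 21.5 CPM with siCEACAM6#2, 330.4 ± 42.5 CPM with siCEACAM6#3 and 229 ± 15.8 CPM with NTC (0.40 ± 0.086, adjusted p = 0.0263). Its siRNA groups overlapped, and it held CCAAATA. The number of called genes of this list was 9 without siCEACAM6#3 replicate 1, 1 to 4 without any one of the other 7 siRNA samples, lowest without siCEACAM6#2 replicate 1, and 1 with the 8 siRNA samples fitted alone.

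Transfected RNA can induce interferon and RNA-sensing genes. Of 39 tested, 3 were called, all higher with siCEACAM6#3, and the median was 0.07. OAS1, a sensor of double-stranded RNA, stood at 14.6, 17.2, 14.2 and 15 CPM with siCEACAM6#2, 20.7, 19.8, 22.8 and 27.9 CPM with siCEACAM6#3 and 16.9, 18.4, 18.7 and 19.2 CPM with NTC. The siRNA groups did not overlap, and the difference was 0.57 ± 0.10, adjusted p = 0.00917. SAMD9 (0.31 ± 0.067, adjusted p = 0.0302) and PARP9 (0.23 ± 0.054, adjusted p = 0.0456) were the others, and both held CCAAATA. They were called in 2 and 1 of the 8 fits. In 6 of these fits 1 gene of the list was called, against 3 without siCEACAM6#3 replicate 4 and 2 without its replicate 1. With the 8 siRNA samples fitted alone limma-voom called none, although 8 genes had an unadjusted p under 0.05 with all samples and edgeR and DESeq2 called 3 each. None of 19 genes of the RNA interference machinery was called by limma-voom, edgeR or DESeq2, 2 had an unadjusted p under 0.05, and their median was 0.031. DICER1, the enzyme that processes small RNAs, differed by -0.013 (95% confidence interval -0.18 to 0.15).

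None of 55 G2/M genes and none of 43 genes of S phase and replication was called by limma-voom, edgeR or DESeq2, where 6 and 0 had an unadjusted p under 0.05, with medians of 0.053 and -0.026. TOP2A differed by 0.063 (-0.10 to 0.23) and MCM2, a replicative helicase subunit, by -0.0095 (-0.19 to 0.17), the brackets giving 95% confidence intervals. Both lists spread widely within each siRNA. As a mean over the S phase list relative to NTC (log2), replicate 1 stood at 0.048 with siCEACAM6#2 and 0.030 with siCEACAM6#3. The other siRNA samples stood from -0.36 to -0.17. For G2/M the values were -0.048 and -0.033, against -0.32 to -0.15. No gene was called by limma-voom among 28 integrins and adhesion kinases (median 0.035), 20 YAP/TEAD targets (0.008), 26 lysosome and autophagy genes (0.035), 37 hypoxia and glycolysis genes (-0.04), 74 nuclear genes of the respiratory chain (-0.031), 14 fatty acid synthesis genes or 14 antigen presentation genes. In this order the lists held 6, 3, 5, 9, 3, 0 and 0 genes with an unadjusted p under 0.05, edgeR called 1 of them in the lysosome list and none in the others, and DESeq2 called 2 in the integrin, lysosome and hypoxia lists each. The integrin ITGA3 differed by 0.18 (0.0011 to 0.35) and SERPINB2, an inhibitor of plasminogen activators, by -0.0092 (-0.29 to 0.27). Of 77 cytosolic ribosomal protein genes, 69 lay below 0, against 9023 of all 17620 genes tested. Their median was -0.081, but the list means relative to NTC overlapped between the siRNAs. These means ran from 0.080 to 0.17 with siCEACAM6#2 and from -0.043 to 0.10 with siCEACAM6#3 (log2). No ribosomal protein gene was called by limma-voom or edgeR. Among the 77, 19 had an unadjusted p under 0.05, and DESeq2 called 5. All 15 mitochondrially encoded genes lay above 0, with a median of 0.15, and MT-RNR2, the large mitochondrial rRNA, was called (0.28 ± 0.059, adjusted p = 0.0247). The median ran from 0.085 to 0.26 over the 8 fits. Without siCEACAM6#3 replicate 1, 7 of the 15 were called, and without siCEACAM6#2 replicate 1, 3 or 4 or replicate 3 or 4 of siCEACAM6#3 none was by limma-voom, where 7 had an unadjusted p under 0.05 with all samples and edgeR and DESeq2 called 1 and 2. As a mean over the list relative to NTC, siCEACAM6#3 replicate 1 (0.041, log2) lay inside the siCEACAM6#2 range (0.0048 to 0.16). Without that replicate the hypoxia and glycolysis list held 5 called genes, epithelial junctions 5, cytosolic ribosomal proteins 4, the TGF-beta and activin axis 3, matrix genes 6, keratin and squamous genes 5, the EGF receptor list 4, cholesterol synthesis, lysosome and Wnt and Notch lists 2 each, and integrins, the respiratory chain, heat shock and plasminogen lists 1 each. Leaving the mitochondrially encoded genes out of the fit gave 254 called genes, of which 254 were among the 259. Of 20 markers of other cell types, 9 passed the filter and CDH5, an endothelial cadherin, was called, at 0.725, 1.02, 0.775 and 0.493 CPM with siCEACAM6#2 and 1.35, 2.31, 1.74 and 2.11 CPM with siCEACAM6#3. The summed endothelial markers were 8.58 to 10.00 CPM and 10.8 to 13.9 CPM in these groups, mostly VWF. Leucocyte, fibroblast and hepatocyte sums overlapped between them, and the defining markers PTPRC, CD3E, LYZ, DCN, LUM, PDGFRA, ALB, APOA1 and TTR were at 0 in at least 1 sample.

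**Figure D5:**
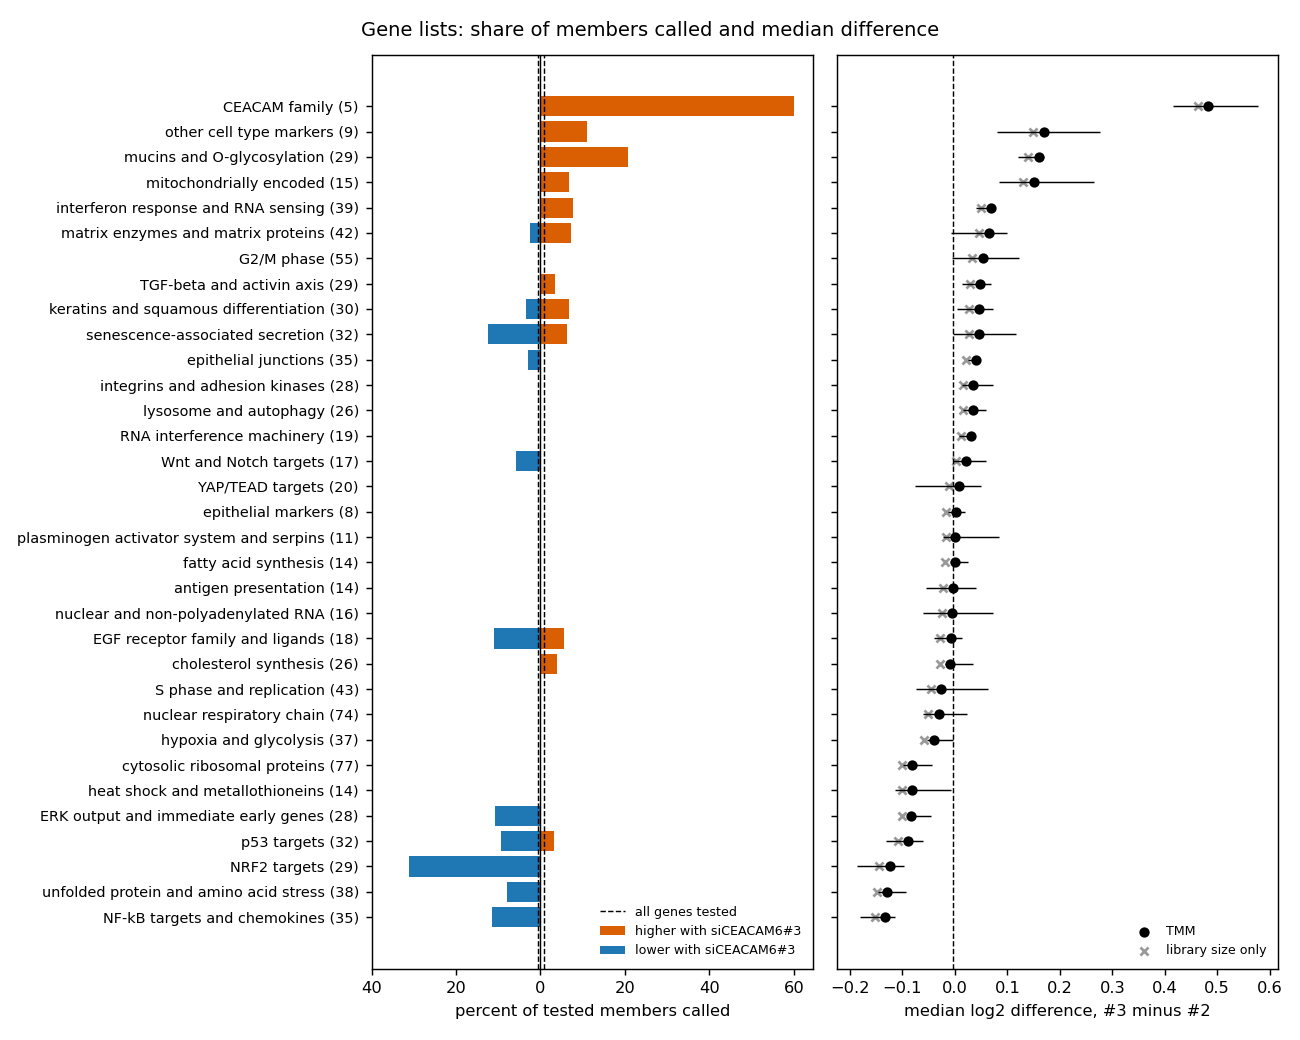
Left, percent of the tested members (number in brackets) of each gene list called higher (orange, to the right) or lower (blue, to the left) with siCEACAM6#3, with dashed lines at the shares of all 17620 genes. Right, median log2 difference of each list with TMM scaling (dots) and with library size only (crosses), with lines for the range over the 8 fits that leave out 1 siRNA sample. The CEACAM family has the highest median (0.48) and the NF-kB, stress and NRF2 lists have the lowest.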

How the data were processed

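RNA-seq of 3 groups of 4 samples of SNU308 cells was analysed. Per the submitters' processing notes, the authors trimmed reads with Trim Galore 0.6.4 and quantified transcripts with kallisto, whose version is written as 0.4.6. The deposited files give estimated counts per gene, of which 68.8% of the values above 0 were not whole (tolerance 1e-06), and TPM, which the authors scaled for gene length and depth. The GENCODE release used by the authors was not given in the sources used here. Of 60617 gene identifiers, 60357 matched a name in GENCODE release 44 on GRCh38, and the others held 0.0631% of counts. Counts divided among near-identical genes are estimates.

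Counts were rounded, filtered by filterByExpr (17620 genes, 99.9% of counts), scaled by TMM and fitted in limma-voom with 1 mean per group over all 12 samples (R 4.3.3, limma 3.58.1, edgeR 4.0.16). P-values were adjusted by the Benjamini-Hochberg method over all genes tested, and called means an adjusted p under 0.05. Values after ± are SE for log2 differences and SD over 4 samples for CPM. The exact permutation test used scipy 1.17.1. The alternatives were edgeR's quasi-likelihood test, DESeq2 1.42.0, other scalings and filters, TPM, fewer genes or samples, sample weights and a replicate block. Total counts were nearly equal, but replicates differed from each other by more than counting error, with a chi-square per degree of freedom of 3.42 to 23.6 between samples of 1 siRNA. On simulated counts for this comparison (17399 genes) the test recovered 56.7%, 78.8% and 95.5% of genes changed by 0.5, 1 and 2 (log2). Of its calls on these simulated counts, 0.645% were false. These rates describe the simulated counts only. Whether they hold for the measured samples, where calls depended on single libraries, was not tested.

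The comparison, the gene lists and the motif search were chosen with earlier results of these data known. Named genes were the 12 higher and 12 lower protein-coding genes with the largest difference and a mean of at least 3 CPM, the 6 higher and 6 lower with the smallest p, CEACAM6, up to 8 called genes per list, and up to 3 abundant genes of a list without calls. HMOX1, NEBL, DGCR2, MYL6, MBNL3, TWSG1, RASSF8 and RBFOX2 fall outside it and were named after their values were seen. Each guide was derived as the complementary strand of the target that the study lists.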

Additional observations from a re-analysis of the deposited data

Results flagged for a closer look

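Among 234 groups of 4 samples of the named genes, 12 held a sample far from the other 3 by Dixon's criterion. The nominal rate of the criterion is about 1 in 20 groups. Nearly all of these genes were chosen because they were called, and they share the same samples. That rate may not apply to them, so no conclusion is drawn from the count. Most of the 12 samples were labelled replicate 1. In the siCEACAM6#2 group, replicate 1 was low for GNE (43.1 CPM, the others 57.1 to 59.7) and for AQP3 (867 CPM, the others 1265 to 1327) and high for TNFSF18 (2.36 CPM, the others 1.75 to 1.80). Replicate 2 of the same group was high for KRT15 (109 CPM, the others 103.0 to 103.4). In the siCEACAM6#3 group, all 3 cases were replicate 1, which was high for KIAA0319 (8.03 CPM, the others 5.88 to 6.23) and low for CHGB (6.95 CPM, the others 8.62 to 8.80) and CEACAM1 (15.5 CPM, the others 21.2 to 21.9). For each of these genes replicate 1 lay toward the siCEACAM6#2 level. In NTC, replicate 2 was high for SC5D (69.4 CPM, the others 67.3 to 67.6) and NQO1 (2035 CPM, the others 1922 to 1929), and replicate 1 was low for CDKN2B (70.7 CPM, the others 75.4 to 75.9) and high for CYP4F11 (326 CPM, the others 309 to 311) and BBC3 (10.1 CPM, the others 8.81 to 8.99). What sets these samples apart was not tested.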

How the results depend on the processing

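The 77 called named genes kept their direction under each alternative that gave them a value, and CEACAM6 kept its sign throughout. The number of called genes was 259 with all 12 samples in limma-voom, 276 by edgeR's quasi-likelihood test and 349 with the replicate block. It was 556 by DESeq2, 560 with sample quality weights, 57 with the 8 siRNA samples fitted alone, 49 on log2(TPM + 1) and 53 on log2(TPM + 0.1). Leaving out 1 sample gave 83 (without siCEACAM6#2 replicate 3) to 651 (without siCEACAM6#3 replicate 1). CEACAM6 lost its call with the 8 siRNA samples alone (log2 difference 0.36, adjusted p = 0.0573), on log2(TPM + 1) (0.33, adjusted p = 0.0696) and on log2(TPM + 0.1) (0.33, adjusted p = 0.0683), and among the fits leaving out 1 sample its difference ran from 0.29 to 0.39. The share of called higher genes with CCAAATA was 50.7%, 39.4% by DESeq2, 40.9% on log2(TPM + 1), 40.7% with the replicate block, and 30.4% to 59.7% over the fits leaving out 1 sample. The fit of 8 samples has fewer residual degrees of freedom. The cause of the other shifts was not tested. Of 76 called named genes that gave a value, 53 lost their call on log2(TPM + 1) and 37 without siCEACAM6#2 replicate 3, against 1 by edgeR. The main fit did not pair the samples by replicate number. The correlations of same-numbered deviations were 0.22, 0.13, 0.0008 and -0.027, and not every sample correlated best with its own number. The value of 0.22, for replicate 1 of both siRNAs, was the highest of all pairs, and these libraries lay close together on the main axis of variation. Whether same-numbered samples were handled together was not tested. Depth was nearly equal in all samples, so genes near 1 CPM, such as IL6, CXCL2 and TNFSF18, rest on few reads per sample.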
